A study of Mus musculus with 48 samples.

Results

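The dopamine cell-body region of the ventral midbrain was set against its main target, the striatum. Of the 48 arrays of the series, 24 were used: 12 from the substantia nigra and ventral tegmental area together (SN/VTA) and 12 from the striatum (STR), which is every array of both tissues. Membership was taken from the tissue and time in each sample's label, and every SN/VTA array was paired with the STR array of the same time and replicate, which gave 12 log2 differences per gene. Positive differences mean a higher level in SN/VTA.

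The animals were male C57BL/6 mice on a cycle of 12 h light and 12 h dark, and the labels give no other treatment or genotype. Brains were taken at 6 Zeitgeber times (ZT), counted in hours from lights on, namely 3, 7, 11, 15, 19 and 23 in 2 successive 24-h cycles, the cycle being the replicate number. The tissues were cut from both sides of coronal slices, and each array carried pooled RNA of 3 mice. Errors therefore describe the spread between pools and between times of day, not between single mice, and 12 pairs set the precision.

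Dopamine neurons of the substantia nigra and ventral tegmental area make dopamine from tyrosine, load it into vesicles and send axons to the striatum and cortex. In the striatum most neurons are GABAergic medium spiny projection neurons: those of the direct pathway carry the D1 receptor, dynorphin and substance P, and those of the indirect pathway carry the D2 receptor and enkephalin. The circadian clock runs in most brain cells through transcription factors that drive Per, Cry and Nr1d genes by day and are then repressed by their products.

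In all, 17274 genes were tested with limma. At an adjusted p under 0.05 and a difference of at least 1 (2-fold), 559 genes (3.24% of those tested) were higher and 336 (1.95%) lower in SN/VTA, 895 or 5.18% in either direction. Without the limit on size, 13294 genes (77.0%) passed, so the size of a difference says more here than its p. All 12 SN/VTA arrays lay above all 12 STR arrays for 4298 genes (24.9%) and below them for 1541 (8.92%). The counts of each gene list below are to be read against these shares of all genes tested. The SN/VTA arrays had medians from 5.84 to 5.90 and the STR arrays from 6.03 to 6.07 over all rows. This offset was not the same at all levels, and centring does not even that out. The 25th percentile averaged 4.59 in SN/VTA and 4.83 in STR, but the 95th averaged 9.82 and 9.70. Centring every array on its own median moved the median difference of all tested genes from 0.06 to 0.25 and the calls to 1025 higher and 224 lower, so that 82.1% instead of 62.5% of the called genes were higher in SN/VTA. Correlations across the tested genes were 0.985 to 0.995 between arrays of the same tissue and 0.930 to 0.952 between tissues.

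Genes of dopamine synthesis and transport included the largest difference of all genes named here. Slc6a3, the plasma membrane dopamine transporter, read 11.32, 11.61 and 11.87 in SN/VTA and 5.90, 6.35 and 6.48 in STR (lowest, median and highest of 12 log2 levels). Its difference was 5.35 ± 0.068 (SE, n = 12 pairs), a 40.8-fold ratio, with an adjusted p of 5.2e-18 by limma. The groups lay far apart, and the STR values sat near the means of 6.06 in the prefrontal cortex (PFC) and 6.00 in the habenula (HAB). In bulk tissue, fewer cells of a type and less RNA per cell cannot be told apart.

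Th, which encodes tyrosine hydroxylase, the rate-limiting enzyme of dopamine synthesis, ranged over 10.65, 11.02 and 11.20 in SN/VTA and 6.78, 7.01 and 7.18 in STR. The difference was 3.94 ± 0.062 (SE, n = 12 pairs; adjusted p = 4.86e-17, limma). Slc18a2, the transporter that fills vesicles with monoamines, had 9.79, 10.15 and 10.39 against 6.69, 6.88 and 7.07, a difference of 3.25 ± 0.047. Neither gene's ranges overlapped. Ddc, the decarboxylase that follows Th, was the fourth called member of the list of dopamine synthesis and transport, at 2.10 ± 0.059. Its other 4 members make or recycle tetrahydrobiopterin, the cofactor of Th: Qdpr differed by 0.94, Gch1 by 0.66, Spr by 0.52 and Pts by 0.31. The list thus had 4 of 8 tested members higher and 0 lower, with a median difference of 1.52 against 0.06 over all genes tested.

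The promoters of the 2 genes with the largest positive differences are shown because members of the same pathway differed together, and because both hold a motif among those searched. Each line gives 250 bases that end at the start of the gene, from RefSeq on GRCm38.p6, with the motif in capitals. Slc6a3 is on the plus strand at chr13:73536497-73536746 and Th on the minus strand at chr7:142899996-142900245.
Slc6a3: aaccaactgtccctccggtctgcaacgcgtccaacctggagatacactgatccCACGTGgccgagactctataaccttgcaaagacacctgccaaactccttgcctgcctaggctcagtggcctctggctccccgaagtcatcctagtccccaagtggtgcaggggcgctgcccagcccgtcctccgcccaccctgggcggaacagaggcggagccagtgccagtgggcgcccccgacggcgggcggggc
Th: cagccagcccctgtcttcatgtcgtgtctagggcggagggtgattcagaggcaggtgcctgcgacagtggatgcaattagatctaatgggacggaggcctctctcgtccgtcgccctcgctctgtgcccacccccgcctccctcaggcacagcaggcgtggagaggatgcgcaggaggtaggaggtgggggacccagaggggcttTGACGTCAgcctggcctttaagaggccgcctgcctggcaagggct
The capitals are the E-box CACGTG in Slc6a3, at positions -197 to -192 from the start, and the cAMP response element TGACGTCA in Th, at -45 to -38. Of 32851 promoters of this length, 6.02% held the E-box and 1.55% the cAMP response element on either strand. The NBRE motif AAAGGTCA, the site of Nr4a2 and its relatives, was searched as well and was found in neither window and in 1.34% of all promoters. Windows of Drd1 and Rgs9, genes lower in SN/VTA that are given below, were searched too and held 0 motifs. The matches found do not overlap, and a match is a description of the letters, not a site shown to be bound.

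Enzymes that break down monoamines had 1 of 7 tested members higher and 0 lower. Aldh1a1, a retinaldehyde dehydrogenase that marks a ventral class of dopamine neurons and oxidises the aldehyde formed from dopamine, measured 11.12, 11.24 and 11.43 in SN/VTA and 8.28, 8.51 and 8.70 in STR. With a difference of 2.74 ± 0.037 it was the only called member; the noradrenaline-making enzyme Dbh, also on the list, was at -0.15 and Akr1a1 at -0.039. The monoamine oxidases Maoa (0.98 ± 0.044) and Maob (0.89 ± 0.050) stayed just under the limit of 1, although their ranges in the 2 tissues did not overlap. Centring raised this count to 4.

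Transcription factors that specify midbrain dopamine neurons had 4 of 12 members called, all higher, with a median of 0.80. Nr4a2 (Nurr1), needed for Th expression, read 8.59, 8.89 and 9.07 in SN/VTA and 6.27, 6.92 and 7.85 in STR, a difference of 1.88 ± 0.11. Ebf3 differed by 2.38, the pioneer factor Foxa1 by 2.20 and the midbrain patterning gene En1 by 1.55. Otx2, which marks ventral tegmental neurons, was at 0.98 and En2 at 0.84, both under the limit. Pitx3 and Sox6, chosen after their values were seen, differed by only 0.044 and -0.022, with adjusted p of 0.33 and 0.694 by limma. Levels of Pitx3 on the array were 5.87, 6.00 and 6.14 in SN/VTA and 5.75, 5.96 and 6.16 in STR, so a defining gene of these neurons was not separated here.

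Receptors, channels and growth factor receptors of dopamine neurons gave 9 of 18 members higher and 0 lower, with a median of 1.03. Chrna6 and Chrnb3 encode nicotinic receptor subunits that are concentrated in catecholamine neurons. Chrna6 measured 8.68, 9.14 and 9.52 in SN/VTA against 5.15, 5.51 and 5.84 in STR, a difference of 3.61 ± 0.099. Chrnb3 measured 7.97, 8.37 and 8.62 against 5.26, 5.66 and 6.24, a difference of 2.66 ± 0.099. For both, even the lowest SN/VTA array exceeded the highest STR array. Ret, the receptor tyrosine kinase for GDNF, differed by 2.55, the nicotinic subunit Chrna4 by 1.79, the guanylate cyclase receptor Gucy2c by 1.70 and gastrin-releasing peptide (Grp) by 1.56.

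Of 11 familial Parkinson disease genes tested, 0 were higher and 1 was lower. Lrrk2, a large kinase, read 7.33, 7.53 and 7.59 in SN/VTA and 8.80, 9.10 and 9.38 in STR and was lower by 1.58 ± 0.043. Vps35 of the retromer (0.72), the mitochondrial kinase Pink1 (0.66) and Atp13a2 (0.64) leaned the other way without reaching 1. The list median was 0.37.

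**Figure D1:**
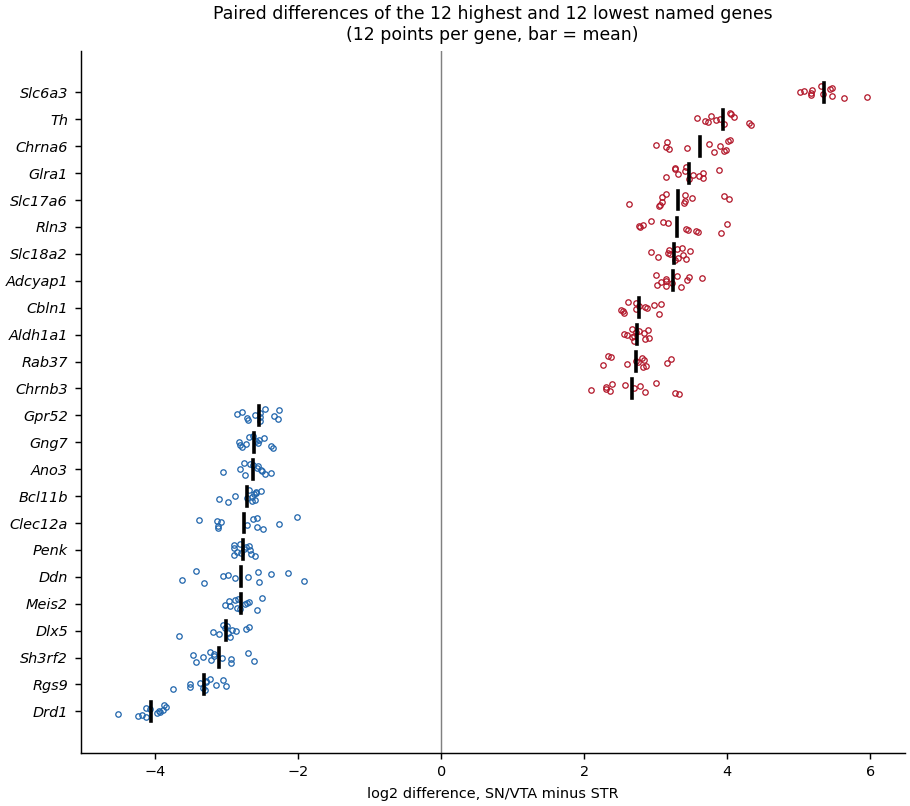
Log2 differences (SN/VTA minus STR, horizontal axis) of the 12 named genes with the highest and the 12 with the lowest means. Each open circle is 1 of 12 pairs of arrays and each black bar the mean; Slc6a3 lies between 5.02 and 5.95, Drd1 between -4.51 and -3.84, and no circle crosses 0.

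Drd1 had the lowest difference of the named genes, and markers of medium spiny neurons were frequent among the 12 lowest. Drd1, the D1 dopamine receptor of the direct pathway, read 5.20, 5.48 and 5.63 in SN/VTA and 9.36, 9.49 and 9.71 in STR. The difference was -4.06 ± 0.053 (SE, n = 12 pairs; adjusted p = 5.2e-18, limma), a 16.7-fold ratio. No SN/VTA array came within 3 units of any STR array, and the SN/VTA mean was close to that of HAB, 5.53.

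Dopamine receptors as a group had 3 of 5 members lower and 0 higher. Drd2, which is the receptor of the indirect pathway and also the autoreceptor of dopamine neurons, measured 9.70, 10.04 and 10.23 in SN/VTA and 11.36, 11.54 and 11.72 in STR. It was lower by 1.52 ± 0.064, while PFC and HAB had means of 7.41 and 7.91, both below the lowest SN/VTA array. Drd3 differed by -1.37, Drd4 by -0.0081 and Drd5 by -0.10, the last 2 with adjusted p of 0.904 and 0.156 by limma.

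Direct pathway markers had 6 of 9 members lower and 0 higher, median -1.45. Besides Drd1 these were the M4 muscarinic receptor Chrm4 (-2.10), prodynorphin Pdyn (-1.86), the substance P precursor Tac1 (-1.69), the transporter family gene Slc35d3 (-1.45) and the homeobox gene Isl1 (-1.25). Another 2 of the 9 had positive differences, up to 0.73, and 1 lay above all STR arrays in every SN/VTA array. Indirect pathway markers had 4 of 7 lower and 0 higher, median -1.52. Penk, the enkephalin precursor, read 9.35, 9.48 and 9.59 in SN/VTA and 12.12, 12.28 and 12.35 in STR, a difference of -2.77 ± 0.036. Gpr52, an orphan receptor of these neurons, had 7.25, 7.53 and 7.89 against 9.77, 10.09 and 10.34 and a difference of -2.55 ± 0.053. Gpr6, another orphan receptor, differed by -1.98. All the lower genes named in this paragraph were below every STR array in every SN/VTA array.

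Signal transduction genes of spiny neurons had 17 of 25 members lower (14 after centring) and 0 higher, median -1.28. All STR arrays lay above all SN/VTA arrays for 23 of the 25. Of all tested genes, 1.95% were lower and 8.92% lay below all STR arrays. Rgs9, which speeds the shut-off of G proteins at dopamine and opioid receptors, measured 7.88, 8.03 and 8.20 in SN/VTA and 11.16, 11.34 and 11.67 in STR, lower by 3.32 ± 0.056. Gng7, a gamma subunit that joins the olfactory-type G protein to adenylyl cyclase, had 8.52, 8.66 and 8.87 against 11.09, 11.27 and 11.44, lower by 2.62 ± 0.046. Its effector Adcy5, the main striatal adenylyl cyclase, was lower by 1.70 ± 0.045. The cyclic nucleotide phosphodiesterase Pde10a (-2.43), the actin crosslinker Actn2 (-2.48) and the small GTPase Rasd2 (-2.04) completed the 6 largest. Ppp1r1b (DARPP-32) and Adora2a were not analysed here.

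Striatal transcription factors had 8 of 17 members lower and 0 higher, median -0.90. Dlx5, a homeobox gene of GABAergic forebrain neurons, measured 5.98, 6.55 and 6.90 in SN/VTA and 9.32, 9.56 and 9.77 in STR, a difference of -3.01 ± 0.065. Meis2 had 8.09, 8.16 and 8.49 against 10.92, 11.01 and 11.20 (-2.80 ± 0.046), and Bcl11b (Ctip2), needed for spiny neuron maturation, 7.12, 7.52 and 7.73 against 10.03, 10.18 and 10.32 (-2.72 ± 0.050). The retinoid receptors Rxrg (-2.23) and Rarb (-2.01) and the Dlx5 neighbour Dlx6 (-1.94) were lower as well.

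Markers of striatal interneurons had 6 of 11 members lower and 1 higher, median -1.19. Cholinergic genes made up most of the lower ones: the choline transporter Slc5a7 (-2.23), the vesicular transporter Slc18a3 (-1.80), Chat itself (-1.77) and the factor Lhx8 (-1.70). These share 3 genes with the list of midbrain motor nuclei, which had 4 of 6 lower. Npy was lower by 2.15. Pvalb, the calcium buffer of fast-spiking neurons, went the other way, with 8.97, 9.17 and 9.37 in SN/VTA and 6.79, 7.31 and 7.41 in STR, a difference of 1.97 ± 0.047.

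The remaining genes among the 12 lowest belong to none of these lists. Sh3rf2, a ubiquitin ligase with SH3 domains, had 5.19, 5.61 and 5.72 in SN/VTA and 8.34, 8.73 and 8.88 in STR (-3.11 ± 0.069). Ano3, of the anoctamin family, had 6.95, 7.28 and 7.53 against 9.76, 9.94 and 10.13 (-2.64 ± 0.051). Clec12a, a lectin receptor known from myeloid cells, had 4.18, 4.68 and 4.98 against 6.89, 7.43 and 7.82 (-2.76 ± 0.10), while the list of microglial genes had 0 of 11 members called in either direction. Ddn, whose dendrin protein lies in dendrites, spread most among the lowest 12: its SN/VTA arrays ran over 6.95, 7.65 and 8.49 and its STR arrays over 10.39, 10.47 and 10.61, a difference of -2.79 ± 0.13.

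**Figure D2:**
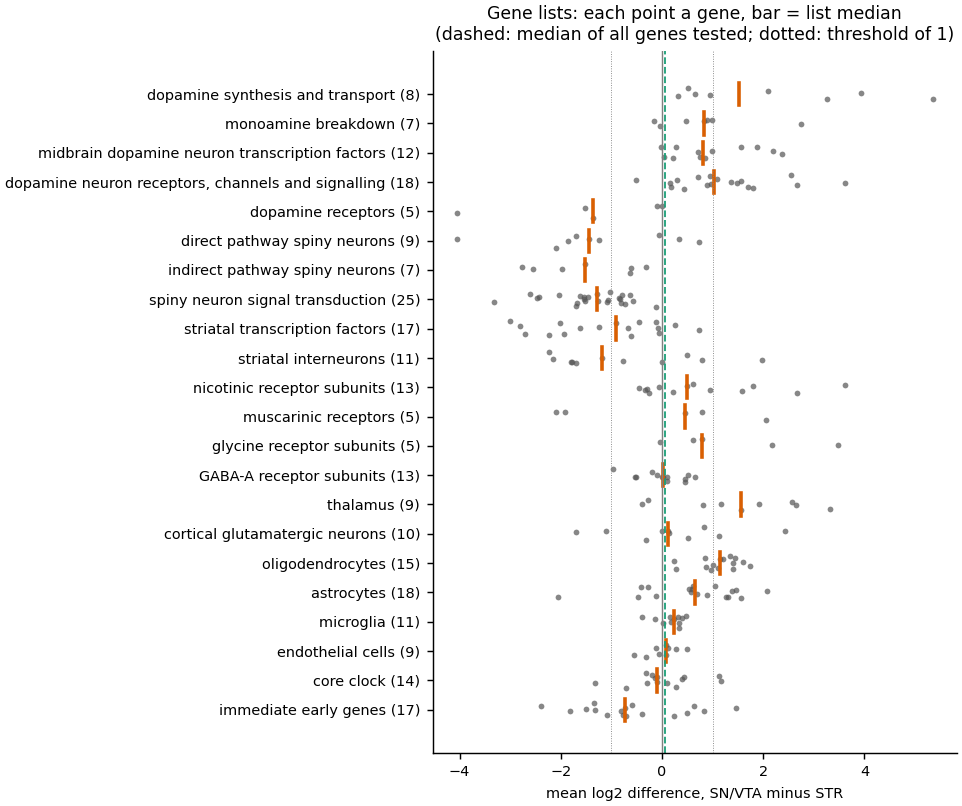
Mean log2 difference (SN/VTA minus STR, horizontal axis) of every tested member of 22 gene lists, with the number of tested genes in brackets. Orange bars are list medians, the dashed line is the median of all tested genes (0.06) and dotted lines mark the limit of 1 in each direction; spiny neuron lists centre between -1.52 and -1.28, dopamine synthesis and thalamus between 1.52 and 1.56, and endothelial and GABA-A genes near 0.

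Genes of fast transmission separated the tissues through a few members. Slc17a6, the vesicular glutamate transporter VGLUT2 of subcortical excitatory neurons, read 10.59, 10.84 and 10.91 in SN/VTA and 6.88, 7.56 and 7.96 in STR, a difference of 3.31 ± 0.098. The GABA transporter Slc6a11 was the other of 2 higher members among 15 tested, at 1.31, with 0 lower. Slc17a8 (VGLUT3) reached -0.90. The genes of GABA synthesis and vesicular loading, listed here after their values were seen, stayed under the limit, with Gad1 at -0.53, Gad2 at -0.44 and Slc32a1 at -0.45.

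Inhibitory receptors split by transmitter. Glra1, the adult alpha subunit of the glycine receptor, measured 9.75, 9.97 and 10.12 in SN/VTA and 6.15, 6.51 and 6.76 in STR, a difference of 3.47 ± 0.057. Glra3 was higher by 2.18, and Glrb, the beta subunit, by 0.80, under the limit. In all, 2 of 5 glycine receptor genes were higher and 0 lower, against 0 of 13 GABA-A subunits in either direction. The GABA-A values ran from -0.97 (Gabrg3) to 0.65 (Gabrq), with a median of 0.01 that became -0.09 after quantile normalization, when 1 subunit was called lower. Whether the 2 families differ from each other was not tested.

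Ionotropic glutamate receptors had 1 of 16 members called: Gria2, which makes AMPA receptors impermeable to calcium, was lower by 1.14 ± 0.032, a call lost on centring, when 2 other members were called higher. Among metabotropic receptors, Grm2 (2.00) and the GABA-B subunit Gabbr2 (1.41) were higher and 0 of 9 lower; Grm5 was at -0.99, and quantile normalization gave 1 lower call. Nicotinic subunits had 4 of 13 higher and 0 lower; the members not yet given were Chrna3 at 1.58 and, under the limit, Chrna5 at 0.94 and Chrnb2 at 0.60. Muscarinic receptors went both ways: Chrm5, the subtype of dopamine neurons, was higher by 2.06 ± 0.079, and Chrm1 was lower by 1.92 ± 0.072 beside Chrm4. The serotonin receptors Htr1b (-1.58) and Htr6 (-1.13, lost on centring) were lower, and Htr7 was higher by 1.10, out of 14 tested.

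Neuropeptide precursors had 7 of 37 members higher and 6 lower. Rln3, relaxin-3 of a few brainstem and periaqueductal cell groups, measured 8.92, 9.42 and 9.95 in SN/VTA and 5.89, 6.21 and 6.38 in STR, a difference of 3.29 ± 0.11. Adcyap1, the precursor of PACAP, had 9.07, 9.37 and 9.60 against 5.77, 5.99 and 6.45, a difference of 3.25 ± 0.054. Both SN/VTA groups stood above all STR arrays. The higher members included Nmbr, a receptor and no precursor, at 1.06. On the other side stood Penk, Npy, Pdyn and Tac1, given above. The 4 opioid receptors tested ran from -0.43 (Oprd1) to 0.45 (Oprl1), so the 2 opioid calls of 8 were both peptide precursors. Synaptic adhesion genes had 2 of 24 higher and 1 lower, nuclear-encoded respiratory chain subunits 1 of 74 in each direction and ribosomal proteins 1 of 59 higher. After centring these became 2 and 0, 4 and 1, and 2 and 0, and quantile normalization gave 3 lower adhesion genes and 0 ribosomal calls.

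Cbln1 and Rab37 are the 2 genes among the 12 highest that belong to none of the lists. Cbln1, a secreted organiser of synapses, read 8.99, 9.15 and 9.49 in SN/VTA and 5.92, 6.50 and 6.64 in STR (2.77 ± 0.053). Rab37, a small GTPase of secretory vesicles, had 7.92, 8.33 and 8.56 against 5.22, 5.64 and 5.79 (2.73 ± 0.076).

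Ion channels changed sides within families. Of 57 potassium channel genes 7 were higher and 8 lower (15 and 7 after centring); Kcnip2, a partner of Kv4 channels, had the lowest value with -2.45 ± 0.10, followed by Kcnh3 at -2.04. Kcnab3 (1.96) and the Kv3 channel of fast-firing neurons Kcnc2 (1.50) were higher. Of 30 sodium, calcium and HCN channel genes 3 were higher and 3 lower. The higher ones were the pacemaker channels Hcn4 (1.53) and Hcn2 (1.31) and the T-type calcium channel Cacna1g (1.51). The lower ones were Cacng3 (-1.57), Cacna2d3 (-1.45) and the R-type channel Cacna1e (-1.27).

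Genes known from brain patterning and wiring were next. Midbrain and hindbrain patterning genes had 9 of 39 members higher (14 after centring) and 1 lower (Lmo3, -1.20), median 0.57. Shox2 (2.23), Lhx9 (1.56), Lhx1 (1.47), Lhx5 (1.33) and Foxb1 (1.21) led them with En1. Axon guidance genes had 5 of 44 higher and 3 lower, with netrin-G1 (Ntng1, 2.15) and the netrin receptor Unc5b (1.71) highest and the semaphorin receptor Plxnd1 (-1.41) lowest. Neurofilament and long axon genes had 3 of 8 higher and 0 lower; the heavy neurofilament Nefh was higher by 1.63 ± 0.037, while Sncg (1.09) and Vamp1 (1.06) lost their calls on quantile normalization.

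Glial markers moved with the tissue comparison. Oligodendrocyte genes had 10 of 15 members higher and 0 lower, median 1.14. Mog, a protein of the outer myelin surface, measured 10.81, 10.92 and 11.12 in SN/VTA and 9.19, 9.34 and 9.48 in STR (1.60 ± 0.040). Klk6 (1.74), Aspa (1.45), Hapln2 (1.41), Ermn (1.40) and Mag (1.34) followed. Their summed level, as log2 of the summed linear values, was 14.14 to 14.35 in SN/VTA and 13.07 to 13.24 in STR. Precursor genes had 2 of 8 higher (Enpp6, 1.28; Sox10, 1.12; 4 after centring), with sums of 11.64 to 11.86 against 10.83 to 11.07.

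Astrocyte genes had 7 of 18 members higher and 1 lower, median 0.65, with sums of 14.33 to 14.43 against 13.65 to 13.85. Differences were positive for 13 of the 18 and negative for 5. All SN/VTA arrays lay above all STR arrays for 13 and below them for 3. Agt, angiotensinogen, was higher by 2.07 ± 0.064. Gfap, the filament of reactive and fibrous astrocytes, measured 9.29, 9.55 and 9.76 against 7.64, 8.03 and 8.28 (1.56 ± 0.058), and the water channel Aqp4 was higher by 1.46. Crym, which striatal astrocytes and cortical neurons share, was lower by 2.06 ± 0.19, with SN/VTA arrays spread over 6.60, 7.94 and 8.93 against 9.68, 9.85 and 10.15. Cholesterol synthesis, which myelin draws on, had 2 of 13 genes higher (Sqle, 1.15; Cyp51, 1.04) and a median of 0.76. It had 6 higher after centring and 1, without Cyp51, after quantile normalization. The part of glial content in the differences of neuronal genes was not tested.

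Cells of vessels and immune cells separated little. Microglial genes had 0 of 11 called, with values from -0.40 (Cx3cr1) to 0.47 (C1qa). Endothelial genes had 0 of 9 called with sums of 11.52 to 11.76 in SN/VTA and 11.38 to 11.54 in STR, mural genes 0 of 9 and ependymal genes 0 of 6. Of the 9 choroid plexus genes only Ttr was called (2 genes after centring or quantile normalization), but its arrays overlapped: 8.49, 9.55 and 11.98 in SN/VTA and 7.13, 7.62 and 11.79 in STR, a difference of 2.06 ± 0.35 whose 6 time means spanned 2.97.

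Markers of neighbouring tissue also moved. Thalamic markers had 6 of 9 members higher and 0 lower, median 1.56, with sums of 12.09 to 12.67 in SN/VTA and 10.78 to 10.95 in STR. Apart from Slc17a6 these were Plekhg1 (2.64), the Wnt effector Tcf7l2 (2.57), Prkcd (1.92), Lhx9 and Rora (1.16). Prkcd spread over 9.37, 10.19 and 10.58 among the SN/VTA arrays and 7.93, 8.21 and 8.42 among the STR arrays. Hippocampal markers had Prox1 (1.75) and C1ql2 (1.57) higher and Wfs1 (-1.85) lower out of 8. Of the cortical markers, Nrn1 (2.43) and Rorb (1.12) were higher and Lamp5 (-1.70) and Tbr1 (-1.10, lost on both other scalings) lower out of 10. Serotonin neuron markers had 1 of 4 tested members higher and 0 lower, the call being Ddc, which dopamine neurons share; Gata3 was at 0.017 and Htr1a at 0.041. Tph2, the serotonin-making enzyme of the raphe, had overlapping levels of 4.83, 5.20 and 6.79 in SN/VTA and 4.96, 5.14 and 5.64 in STR (lowest, median and highest of each tissue). The share of thalamic or other neighbouring tissue in the SN/VTA differences was not tested.

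The other 2 tissues placed the differences. Of the 559 genes higher in SN/VTA, 465 (83.2%) had their highest mean of all 4 tissues in SN/VTA, 298 (53.3%) had their lowest in STR and 222 (39.7%) had both. Among all tested genes SN/VTA was the highest tissue for 32.9% and STR the lowest for 25.3%. Of the 336 lower genes, 231 (68.8%) had their highest mean in STR, 262 (78%) had their lowest in SN/VTA and 163 (48.5%) had both, against 25.5% and 20.5% of all tested genes. Penk had means of 9.71 in PFC and 8.16 in HAB, below every STR array, whereas Lrrk2 had a mean of 8.74 in PFC, near its STR levels. A gene called higher in SN/VTA cannot have its highest mean in STR or its lowest in SN/VTA, and the reverse holds for lower genes. The shares of all tested genes carry no such condition, so they are not a like comparison. These counts describe the called genes and were not tested.

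MicroRNA genes lay mostly on the low side. Of 247 tested, 209 had a negative difference, 41 were lower and 3 higher by at least 1, and 84 lay below all STR arrays. Of all 17274 genes tested, 7600 had a negative difference, 336 (1.95%) were lower and 559 (3.24%) higher. All STR arrays lay above all SN/VTA arrays for 1541 genes (8.92%). The median of the microRNA genes was -0.51, and after centring it was -0.32 with 26 lower. The list median was also below that of all genes in each of 5 bands of mean level: -0.39 to -0.98 against -0.15 to 0.22. Mir690 (-2.54), Mir708 (-2.33), Mir467c (-2.22), Mir28c (-2.05), Mir665 (-1.83) and Mir5125 (-1.81) had the largest differences. For comparison, 71 small nucleolar RNA genes had 4 higher and 2 lower with a median of -0.17.

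A run of microRNA genes on the distal part of chromosome 12, within the imprinted Dlk1 to Dio3 region and transcribed from the maternal chromosome with the noncoding RNAs Meg3, Rian and Mirg, was examined after the values were seen. The 34 tested genes that could be placed there by a hairpin entry span 171.2 kb at chr12:109571990-109743236 (GRCm38.p6). All 34 had a negative difference, 14 were lower by at least 1, 24 lay below every STR array, and the median was -0.94. Of the 166 genes placed elsewhere, 140 had a negative difference, 18 were lower by at least 1 and 45 lay below every STR array. Their median was -0.42. Over all tested genes 1.95% were lower and 8.92% lay below every STR array. Another 47 tested microRNA genes had no hairpin entry and no position here, so they were left out of both sets. Mir544 and Mir666, known as members of this region, are among these 47, with differences of -1.35 and 0.12. After centring 8 of the 34 were lower by at least 1 with a median of -0.76, and after quantile normalization 15 with a median of -0.88. The 5 lowest members are shown with both mature arms from RefSeq; capitals mark the seed, bases 2 to 8, which pairs with targets.
miR-665-5p: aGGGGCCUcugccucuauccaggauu
miR-665-3p: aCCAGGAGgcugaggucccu
miR-370-5p: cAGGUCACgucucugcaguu
miR-370-3p: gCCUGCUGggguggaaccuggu
miR-329-5p: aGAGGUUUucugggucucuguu
miR-329-3p: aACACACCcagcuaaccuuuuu
miR-1188-5p: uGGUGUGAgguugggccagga
miR-1188-3p: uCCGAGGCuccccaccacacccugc
miR-654-5p: uGGUAAGCugcagaacaugugu
miR-654-3p: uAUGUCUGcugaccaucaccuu
These 10 arms have 10 different seeds, and among the 65 mature entries of the cluster 5 seeds occurred in more than 1 gene. The seed AGGUCAC of miR-370-5p, for one, is also that of miR-1193-3p. The array names a value by microRNA gene, so the arms cannot be told apart. Mature forms were not measured apart from hairpins or longer transcripts of the same place. The values are therefore not levels of mature microRNAs.

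Mir665 measured 7.73, 7.87 and 8.22 in SN/VTA and 9.58, 9.71 and 9.87 in STR, lower by 1.83 ± 0.052 (SE, n = 12 pairs). Mir370 had 4.18, 4.82 and 5.18 against 6.23, 6.61 and 6.73 (-1.78 ± 0.10), and Mir329 had 7.46, 7.68 and 8.10 against 9.24, 9.44 and 9.62 (-1.72 ± 0.058). None of these ranges overlapped. At the other end Mir494 differed by only -0.22 ± 0.090. The long transcripts of the region were lower by less: Meg3 by 0.60 and Rian by 0.59. Dlk1, expressed from the paternal chromosome, was higher, at 0.88.

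**Figure D3:**
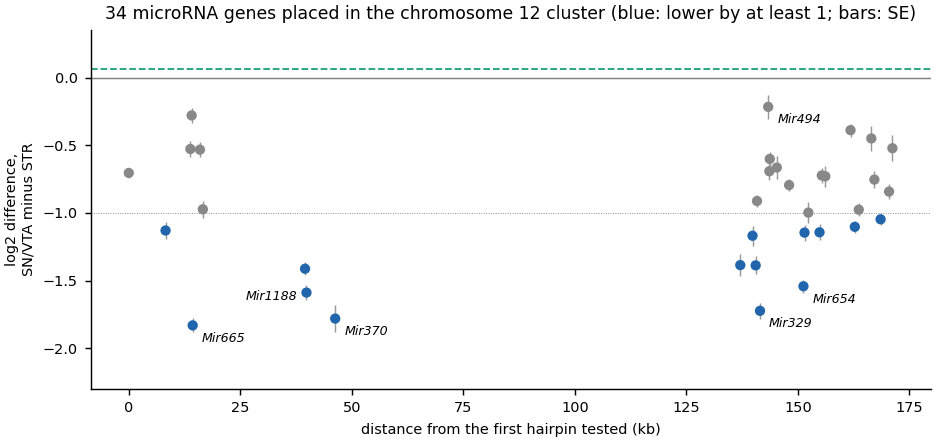
Log2 difference (SN/VTA minus STR, vertical axis) of the 34 tested microRNA genes placed in the chromosome 12 cluster against distance from the first hairpin in kb. Bars are SE over 12 pairs, blue points are lower by at least 1 and the dashed line is the median of all tested genes (0.06); every point lies below 0, with Mir665 lowest at -1.83 and Mir494 highest at -0.22.

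The 3 microRNA genes higher in SN/VTA were Mir101c (1.79 ± 0.19), Mir1983 (1.32 ± 0.090) and Mir219a-2 (1.24 ± 0.067). Ranges of the first 2 overlapped between the tissues. Mir101c had 4.69, 6.65 and 7.29 in SN/VTA and 3.61, 4.67 and 5.27 in STR, and was positive in 11 of 12 pairs. Mir1983 had 5.74, 6.54 and 7.10 against 4.61, 5.20 and 5.81. Mir219a-2 is shown because its mature form, miR-219a-5p, is known from myelinating oligodendrocytes, whose markers were higher in the same arrays.
miR-219a-5p: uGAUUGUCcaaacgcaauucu
Mir219a-2 measured 7.42, 7.74 and 8.03 in SN/VTA and 6.08, 6.57 and 6.93 in STR. The related gene Mir219a-1 was not called, at 0.24 ± 0.075, and its ranges in the 2 tissues overlapped. The values belong to each gene, and the level of the mature form itself was not measured.

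The differences of called genes mostly kept their sign over the day. Of the 895 called genes, 893 had the same sign in all 12 pairs, and the 12 arrays of 1 tissue did not overlap those of the other for 888. Such a lack of overlap held for 33.8% of all tested genes. At a single ZT between 771 and 818 of the called genes kept a mean difference of at least 1, and 574 kept it at all 6 times. The calls rest on the mean of these same pairs, so these counts are largely set by the selection. The median range of the 6 time means was 0.35. Profiles of 2 pairs correlated across genes with r between 0.818 and 0.882 over 66 comparisons; genes are not independent replicates. Slc6a3 differed by 5.79, 5.32, 5.25, 5.04, 5.31 and 5.39 at ZT03, 07, 11, 15, 19 and 23, and Drd1 by -4.18, -4.35, -3.95, -3.92, -4.10 and -3.86. Penk held the narrowest course of these, at -2.75, -2.73, -2.76, -2.83, -2.71 and -2.86.

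A daily change of the difference, the joint F test of a 24-h cosine and sine, was called for 0 of 17274 genes (0.0%) by limma. At an unadjusted p under 0.05 there were 1004 genes, or 5.81%. With 6 separate time levels 0 genes passed and 977 (5.66%) had an unadjusted p under 0.05. Dark minus light (ZT15, 19 and 23 against ZT03, 07 and 11) gave 0 calls (0.0%) and 889 genes (5.15%) unadjusted, and the second minus the first cycle gave 0 calls (0.0%) and 1328 (7.69%) unadjusted. The amplitude of the difference, from mean to peak, had a median of 0.085 over all genes and a 95th percentile of 0.22. For Th dark minus light was -0.071 ± 0.13 and for Drd1 0.20 ± 0.096, with unadjusted p of 0.582 and 0.051 in the fit across all genes.

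Clock genes came next, first by level and then by rhythm. Npas2, the partner of BMAL1 that stands in for CLOCK in forebrain, had 8.28, 8.46 and 8.65 in SN/VTA and 9.57, 9.85 and 9.93 in STR, lower by 1.33 ± 0.034 (adjusted p = 1.01e-14, limma). It was the only lower call among 14 core clock genes, and Rora and Rorb, receptors that activate Arntl, were the 2 higher ones. Clock itself was at 0.44, Arntl (BMAL1) at -0.14 and Per1 at -0.72 ± 0.044, a level difference with overlapping ranges of 8.20, 8.65 and 9.21 and 9.07, 9.35 and 9.85. Of 11 clock output factors 0 passed both limits; Tsc22d3 at 0.78 and Tspan4 at 0.64 were highest and Usp2 at -0.40 lowest.

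Within SN/VTA 28 of all genes (0.162%) had a 24-h rhythm at an adjusted p under 0.05 and within STR 3 (0.0174%). Among these were 4 core clock genes (Per1, Per3, Nr1d1, Nr1d2) and 3 output factors (Dbp, Ciart, Usp2) in SN/VTA, and Nr1d1, Dbp and Ciart in STR. Nr1d1, which encodes the repressor REV-ERB alpha, peaked at ZT 8.3 with an amplitude of 0.35 ± 0.038 in SN/VTA and at ZT 8.2 with 0.41 ± 0.043 in STR. Dbp, an output activator, peaked at ZT 11.1 with 0.44 ± 0.050 and at ZT 11 with 0.40 ± 0.048. Per1 peaked at ZT 12.5 with 0.41 ± 0.044 and at ZT 13 with 0.28 ± 0.048, the STR rhythm having an adjusted p of 0.209 by limma. That a rhythm passed in one tissue alone does not show that the rhythms differ: for Per1 the amplitude of the difference was 0.14 ± 0.056, with an unadjusted p of 0.0867 in the limma fit.

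For Arntl and for Ciart, a repressor of BMAL1, a daily change of the difference between the tissues did not pass the test. For Arntl the amplitude was 0.21 ± 0.033 in SN/VTA and 0.45 ± 0.061 in STR, and the difference changed from -0.41 at ZT23 to 0.13 at ZT07 (unadjusted p = 0.00126, adjusted p = 0.683, limma). Ciart had amplitudes of 0.51 ± 0.061 and 0.75 ± 0.072, with an adjusted p of 0.832 by limma for the difference. Rorb and Fbxl21, a regulator of CRY stability, had unadjusted p of 0.0091 and 0.0079 in the same fit, and 0 of 14 core clock genes passed.

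The promoters of Ciart and Per1 are shown as those of clock genes whose time means were highest at ZT11 in both tissues. The STR rhythm of Per1 did not pass adjustment. Each line gives 250 bases from RefSeq on GRCm38.p6, with the E-box CACGTG and the D-box TTATGNAA in capitals. Ciart lies on the minus strand at chr3:95882229-95882478 and Per1 on the plus strand at chr11:69098699-69098948.
Ciart: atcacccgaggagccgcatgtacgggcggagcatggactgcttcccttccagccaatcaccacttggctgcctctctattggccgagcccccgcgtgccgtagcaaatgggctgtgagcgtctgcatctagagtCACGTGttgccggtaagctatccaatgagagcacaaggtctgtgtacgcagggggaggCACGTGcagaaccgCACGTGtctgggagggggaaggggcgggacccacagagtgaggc
Per1: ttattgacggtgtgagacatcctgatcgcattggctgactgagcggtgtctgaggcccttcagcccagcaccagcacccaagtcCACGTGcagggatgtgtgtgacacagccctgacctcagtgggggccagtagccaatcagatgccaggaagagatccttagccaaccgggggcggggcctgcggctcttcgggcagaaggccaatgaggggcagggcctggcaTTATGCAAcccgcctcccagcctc
Ciart holds 3 copies of the E-box and Per1 holds 1 with a D-box. The D-box was found in 3.07% of the 32851 promoters, and the share for the E-box is given above; Per1 has 2 start sites in the table, of which this is one.

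**Figure D4:**
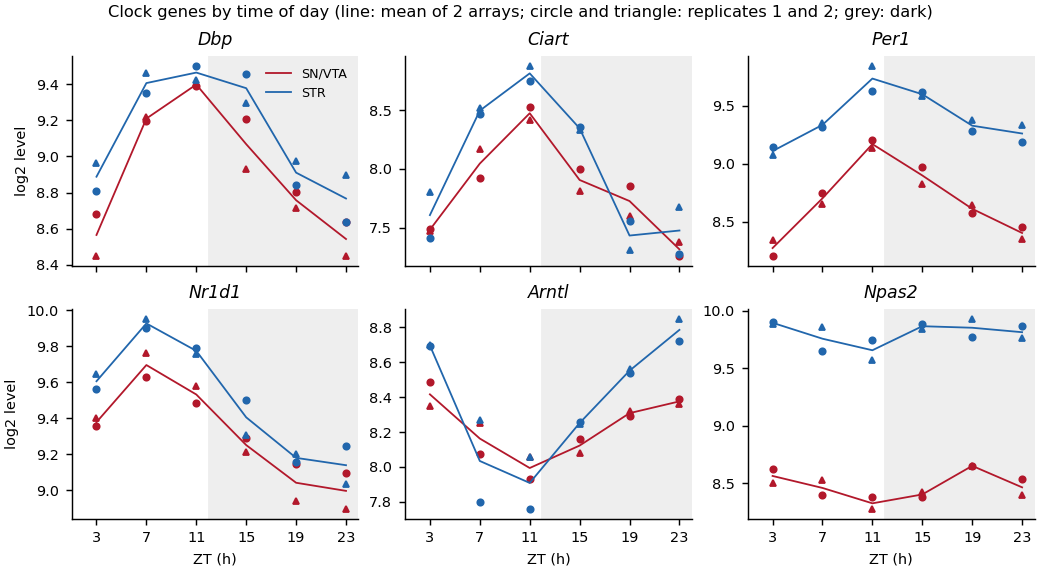
Log2 level (vertical axis) of 6 clock genes against ZT in hours in SN/VTA (red) and STR (blue). Lines join means of 2 arrays, circles and triangles are replicates 1 and 2, and grey marks the dark phase; Dbp, Ciart, Per1 and Nr1d1 rise and fall together in both tissues, whereas the time means of the Npas2 difference stay between -1.46 and -1.20.

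Genes induced by neuronal activity were next. Of 17 immediate early genes 6 were lower in SN/VTA and 1 higher, median -0.72. Egr3 measured 6.18, 6.68 and 6.96 in SN/VTA and 8.57, 9.12 and 9.37 in STR, lower by 2.39 ± 0.066. The nuclear receptor Nr4a1 (-1.82), the inhibitory synapse regulator Npas4 (-1.50), the scaffold Homer1 (-1.34) and Egr1 (-1.33) followed. Jun was higher by 1.46 ± 0.060, and Fos, chosen after its value was seen, was at 0.24. Glucocorticoid-responsive genes (14 tested) and chaperones (22 tested) had 0 calls in either direction.

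The genes with the smallest p for a daily change are given as values, since none passed. Coch, which encodes cochlin of the extracellular matrix, had the lowest adjusted p, 0.059 by limma. Its difference went from -0.72 at ZT03 to 0.26 at ZT11 and -0.61 at ZT23, an amplitude of 0.53 ± 0.063, and leaving out the ZT19 or the ZT23 pair of replicate 1 brought it past the threshold. The amplitude of Coch was 0.45 ± 0.069 in STR and 0.12 ± 0.060 in SN/VTA. Among the others were Aldh1a2, which makes retinoic acid, Mmp14, a membrane metalloprotease, Slc6a13, a GABA transporter of meninges and liver, and Aebp1. The differences of these genes peaked from ZT 2.1 to ZT 3.2, with adjusted p from 0.232 to 0.284 by limma. Rgs4, an RGS protein of forebrain neurons, and Lrrtm1, a synaptic adhesion protein, peaked at ZT 14.6 and ZT 12.6. Coprs, Rbmxl2 and Ntng1 complete the 10, with amplitudes of 0.33, 0.27 and 0.36.

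**Figure D5:**
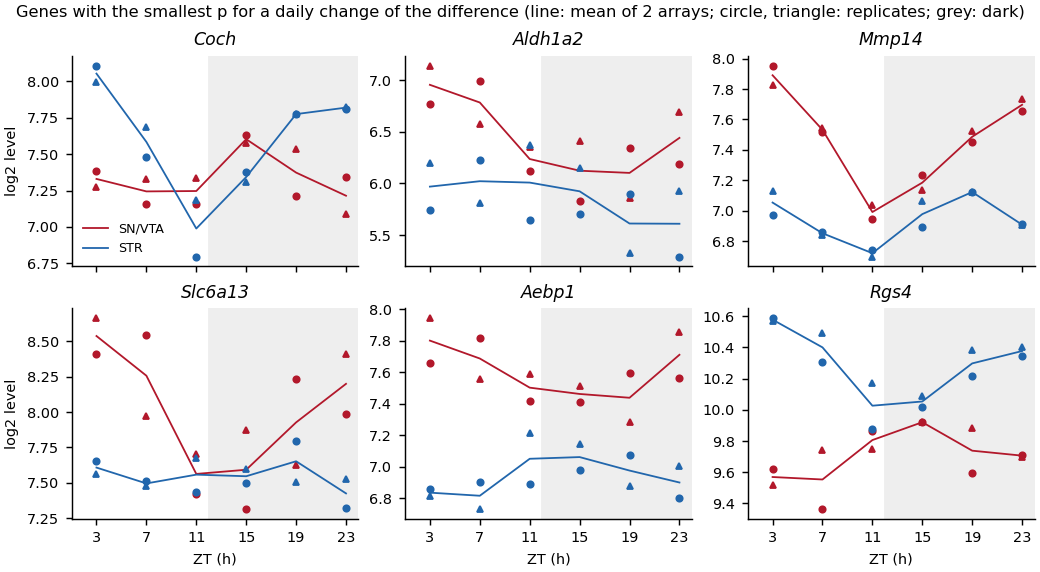
Log2 level (vertical axis) against ZT in hours of 6 of the 10 genes with the smallest p for a daily change of the difference, in SN/VTA (red) and STR (blue). Lines join means of 2 arrays, circles and triangles are replicates 1 and 2, and grey marks the dark phase; the lines of Coch cross between ZT07 and ZT11 and again after ZT15, whereas Mmp14 stays higher in SN/VTA throughout, and 0 of the 6 pass the adjusted threshold.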

How the data were processed

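Expression was measured with Affymetrix Mouse Gene 2.0 ST arrays on RNA isolated with RNeasy columns, pooled from 3 mice per array and labelled with the WT Pico kit, per the labels' protocols. The deposited table held the authors' log2 values for 41345 probe sets, from 1.09 to 13.65. How probes were summarised, background removed and arrays normalized is not given in the sources used here. No detection calls were used, so how far low values are set by background is unknown.

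Of the probe sets, 23521 had 1 gene symbol in the platform annotation, 1814 had several, and 16010 were not listed. For the 1082 genes with several probe sets the one with the highest mean was kept, and 17274 of 22180 genes with a mean of at least 5.05 over all 48 arrays (the 30th percentile) were tested. Genes without a row of their own were not analysed here.

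Each gene's 12 differences, SN/VTA minus STR of the same ZT and replicate, were fitted with limma 3.58.1 in R 4.3.3 (lmFit, eBayes), with Benjamini-Hochberg adjustment over all 17274 genes. A call needed an adjusted p under 0.05 and, for the tissue difference, a size of at least 1. Daily change was tested with both 24-h terms, cosine and sine, in 1 F test. Same-numbered arrays of the 2 tissues had deviations that correlated with r between -0.0501 and 0.097, and pairs rest on the collection time in the labels. Whether both tissues of a pair came from the same mice is not stated there.

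Named genes were the 12 highest and 12 lowest differences with 1 sign in all pairs, up to 6 members of each of the 51 gene lists (all of lists of up to 8), the 10 smallest p for daily change and all clock genes. Predicted genes, short RNAs and receptors of smell were passed over outside their own list. The tissues, lists and tests were chosen with earlier results of these data known. List counts are descriptions, with no set test. Summary scripts ran in Python 3.11.15 with pandas 2.3.3 and matplotlib 3.10.9, and the fits were tested on simulated data. Alternatives were no block for the pair, all 48 arrays in 1 fit, centring, quantile normalization, other filters, the mean of a gene's probe sets, a robust trended eBayes fit, and leaving out each pair or cycle.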

Additional observations from a re-analysis of the deposited data

How the results depend on the processing

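The counts of genes higher and lower in SN/VTA stayed within 1.5 times 559 and 336 under every alternative run, except the 1025 higher when each array was centred on its median (224 lower, 783 of the 895 calls kept). Quantile normalization gave 521 and 342 with 763 kept, and no gene's call reversed its sign. Without the replicate block, taking the 2 tissues as unpaired groups, the counts were again 559 and 336 and all 895 genes were kept; no call for daily change was gained, and the block changed no other call. Leaving out 1 pair gave 548 to 572 higher and 332 to 340 lower, the first cycle alone 622 and 341, and the second cycle alone 513 and 342. The 0 calls for a daily change became 1 with quantile normalization, 1 with a filter at the 50th percentile, 5 with the robust trended fit (Coch, Rgs4, Lrrtm1, Slc6a13 and Ntng1), and 0 to 1 on leaving out a pair; the gained gene there was Coch, without the ZT19 or the ZT23 pair of replicate 1. Dark minus light and the cycles gave 0 calls under the alternatives run. Calls of single named genes were lost in 14 and gained in 43 of the gene-by-alternative values for the tissue difference. The number of arrays and unknown background limit low and small differences; pooling of 3 mice leaves the spread between mice unseen.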

Other observations

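Genes of the leptomeninges, the thin membranes around the brain, recurred among the smallest p for a daily change. A list of 25 such genes was drawn up after those values were seen, so its counts are a description and were not tested. The difference between SN/VTA and STR peaked between ZT23 and ZT5 for 24 of the 25, the exception being Coch, against 3973 of all 17274 genes. An unadjusted p under 0.05 (limma) was reached by 16 of the 25 and by 1004 of all genes, and 0 passed adjustment. Members shared shifts between arrays: in SN/VTA, replicate 2 of Ogn, Osr1 and Slc13a4 lay above replicate 1 at ZT03 and below it at ZT07. They are therefore not separate observations. Summed levels of the list, as log2 of the summed linear values, were 12.90 to 13.53 in SN/VTA and 12.45 to 12.98 in STR. Ogn, osteoglycin of connective tissue, had an amplitude of the difference of 0.63 ± 0.16, the transcription factor Osr1 0.53 ± 0.12, and the meningeal sulfate transporter Slc13a4 0.46 ± 0.11. Decorin (Dcn) was the only one of the list called for the tissue difference, at 1.62. How far membrane left on the dissected tissue moved with these values was not tested.

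Among the called genes, the mean difference ranged most over the 6 times for Ttr, the thyroxine carrier made by the choroid plexus (2.97), then for the hypothalamic peptide Oxt (1.39), the pacemaker channel Hcn4 (1.18), Prdm8, a histone methyltransferase family gene (1.15), and Chrnb3 (1.10). These were chosen after their values were seen, and were not tested.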
